A study of Mus musculus with 27 samples.

Results

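Synpo2, Calb2, Tcf7l2, Prkcd, Lef1, Zic1, Slc17a6, Plekhg1 and Ntng1 are genes grouped here as markers of the thalamus and the neighbouring habenula, and their levels were followed in RNA from mouse hippocampus. The 9 genes were picked by name from the deposited gene table, which held 51826 features, as measures of the tissue that borders the hippocampus in each dissection. All 9 were found in the table, and all 9 were among the 19969 genes left after a filter on low counts. The hippocampi came from outbred ICR mice that had undergone sham surgery or removal of the ovaries (ovariectomy, OVX). The animals received saline or xanthohumol (Xmo), a flavonoid found in hops. The 15 mRNA libraries fell into sham saline (n = 3), sham Xmo (n = 4), OVX saline (n = 4) and OVX Xmo (n = 4). The sources used here do not give age, dose, route or time of treatment. The labels do not say whether a library holds RNA from a single animal or a pool, nor that replicates are separate animals, so each p-value measures only the spread between these libraries.

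The thalamus is the relay of the forebrain. Its excitatory neurons receive sensory and motor input and send axons to the cortex, and unlike most hippocampal pyramidal cells they load glutamate into vesicles with the transporter VGLUT2. The habenula is a small nucleus on the dorsal thalamus that connects the forebrain to the midbrain, and its medial part is rich in peptide and cholinergic genes. Both lie directly under the hippocampus, so a dissection can carry some of either.

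Each gene has a known role. Tcf7l2 and Lef1 encode transcription factors of the TCF/LEF family, which bind DNA and mediate Wnt signalling. Zic1 encodes a zinc-finger transcription factor of the developing and adult brain. Prkcd encodes protein kinase C delta, a signalling kinase abundant in thalamic relay neurons. Calb2 encodes calretinin, a calcium-binding protein that some hippocampal interneurons and mossy cells also make. Slc17a6 encodes VGLUT2 itself. Ntng1 encodes netrin G1, a membrane-anchored protein of thalamocortical axons. Synpo2 encodes an actin-binding protein of the synaptopodin family, and Plekhg1 encodes a predicted exchange factor for small GTPases.

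The genes lie on different chromosomes of GRCm38.p6 or far apart, with coordinates as the gene table gives them. Synpo2 (3:123076519-123236149), Lef1 (3:131110471-131224356) and Ntng1 (3:109780040-110144011) share chromosome 3. Calb2 lies at 8:110137502-110168210, Tcf7l2 at 19:55741810-55933654 and Prkcd at 14:30595356-30626210. Zic1 lies at 9:91358058-91365810, Slc17a6 at 7:51622006-51671119 and Plekhg1 at 10:3740364-3967303. Zic1 shares 43.8% of its span with Zic4 on the opposite strand, and Zic4 had 2750 counts in all libraries against 18689 for Zic1. The sources used here do not say whether reads were counted by strand, so reads of this pair may not be separated. For the other 8 genes the overlapping annotations covered at most 2.2% of the span.

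Because the genes moved together and 2 of them are TCF/LEF factors, the 250 bases before their transcription starts were searched for the core of the TCF/LEF motif. The windows come from the RefSeq promoter table of build GRCm38.p6, which held 14 windows for 8 of the 9 genes and none for Calb2. Shown 5′ to 3′ on the strand of the gene are the window of Synpo2 (chr3:123236150-123236399, minus strand), the gene that varied most, and that of Tcf7l2 (chr19:55741560-55741809, plus strand), a factor of the family. Beside them stand the only windows with a match, those of Prkcd (chr14:30626209-30626458, minus strand) and of an internal start of Lef1 (chr3:131156044-131156293, plus strand). Capitals mark the core motif CTTTGA or its reverse complement TCAAAG.
Synpo2: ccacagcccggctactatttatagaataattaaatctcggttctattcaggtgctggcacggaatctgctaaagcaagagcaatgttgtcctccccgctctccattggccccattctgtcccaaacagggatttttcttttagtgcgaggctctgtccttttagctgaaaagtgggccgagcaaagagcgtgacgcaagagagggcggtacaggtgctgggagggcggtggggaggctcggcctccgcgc
Tcf7l2: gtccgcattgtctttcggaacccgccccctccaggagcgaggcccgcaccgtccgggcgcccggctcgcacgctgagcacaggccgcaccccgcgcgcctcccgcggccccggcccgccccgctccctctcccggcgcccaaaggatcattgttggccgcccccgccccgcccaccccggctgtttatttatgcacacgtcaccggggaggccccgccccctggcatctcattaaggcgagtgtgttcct
Prkcd: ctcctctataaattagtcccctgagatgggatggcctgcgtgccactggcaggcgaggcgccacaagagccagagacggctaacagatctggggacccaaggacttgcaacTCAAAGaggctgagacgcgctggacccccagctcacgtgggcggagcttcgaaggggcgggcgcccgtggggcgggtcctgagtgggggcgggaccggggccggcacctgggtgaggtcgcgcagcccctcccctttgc
Lef1: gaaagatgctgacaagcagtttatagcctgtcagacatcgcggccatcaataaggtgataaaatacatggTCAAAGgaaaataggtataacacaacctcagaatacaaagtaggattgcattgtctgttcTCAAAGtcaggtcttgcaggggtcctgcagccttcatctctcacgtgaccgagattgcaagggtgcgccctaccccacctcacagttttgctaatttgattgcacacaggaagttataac
The core was found in 2 of the 14 windows, and 13.8% of all 32851 windows of this length in the table hold it on either strand. The matches began at position -139 from the start of Prkcd and at -180 and -120 from the internal start of Lef1, which lies 45823 bases inside the gene as the table bounds it. The longer form CTTTGAT, or ATCAAAG on the other strand, contains the core and was in 0 of the 14 windows against 3.21% of all windows. These are matches of letters only, and no binding was measured.

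Per length, Prkcd had the highest median level over the 15 libraries, at 58.4 TPM (transcript abundance per length, scaled to the same total in each library). Calb2 followed at 30.3, Slc17a6 at 25.4, Ntng1 at 24.3, Tcf7l2 at 13.2, Zic1 at 12, Plekhg1 at 10.2, Lef1 at 4.66 and Synpo2 at 4.07 TPM. Every gap between neighbours in this order was smaller than the larger of their SDs over libraries, which ran from 2.86 TPM in Lef1 to 69.5 TPM in Prkcd. This spread does not settle the order, since all genes were measured in the same libraries and moved together. Some neighbours kept their order throughout: Plekhg1 was above Lef1 in every library, for example at 5.77 against 3.19 TPM in OVX Xmo 1. For comparison, the median of Slc17a7, the vesicular glutamate transporter of hippocampal pyramidal cells, was 353 TPM.

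Library totals ran from 20848661 to 39140593 counts. The 13 protein genes of the mitochondrial genome took 19.0% to 34.1% of the counts in sham saline and 11.9% to 19.2% in the other 12 libraries. Levels below are CPM, counts per 1e+06 counts of the library after TMM scaling (a normalization to the bulk of the genes), unless called unscaled. In bulk tissue, fewer cells of a type and less RNA per cell cannot be told apart. Libraries of a group lay far apart for most of the 9 genes, with Plekhg1 the exception in OVX saline and sham saline, and all 4 groups held libraries with high and libraries with low levels.

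Among the signalling and structural genes, Prkcd covered a 19.5-fold range. It stood at 72.1, 126 and 12.7 CPM in sham saline 1 to 3 and at 74.2, 137, 30.1 and 24.6 CPM in sham Xmo 1 to 4. In OVX saline 1 to 4 it stood at 25.6, 21.1, 129 and 105 CPM, and in OVX Xmo 1 to 4 at 13.9, 249, 53.6 and 62.1 CPM. OVX Xmo 2 was thus 17.9-fold above OVX Xmo 1 of the same group, while the group means were 70.2 ± 56.6 (SD, n = 3), 66.5 ± 52.0, 70.0 ± 54.8 and 94.5 ± 105 (n = 4 each). The 4 groups overlapped throughout.

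Synpo2 had the widest range of the 9, 24.5-fold. Sham saline 1 to 3 had 32.2, 58.1 and 3.61 CPM, and sham Xmo 1 to 4 had 14.9, 22.5, 10.7 and 7.13 CPM. OVX saline 1 to 4 had 4.36, 5.40, 21.1 and 18.5 CPM, and OVX Xmo 1 to 4 had 2.62, 64.2, 18.6 and 15.9 CPM. The lowest and the highest library of all 15 were both OVX Xmo libraries, and sham saline held the next highest and the next lowest. Plekhg1 behaved less evenly, in the sham saline libraries at 29.6, 50.9 and 36.9 CPM, in sham Xmo at 26.5, 46.5, 39.8 and 21.8, in OVX saline at 37.2, 30.8, 43.9 and 35.7, and in OVX Xmo at 14.7, 82.4, 51.4 and 24.6. Its OVX saline libraries lay within 1.43-fold of each other, and its extremes were again OVX Xmo 1 and OVX Xmo 2.

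The transcription factor genes had OVX Xmo 2, sham saline 2 and sham Xmo 2 as their 3 highest libraries in Tcf7l2 and Zic1, and OVX Xmo 2 and the first 2 sham saline libraries in Lef1. Tcf7l2 stood in the sham saline libraries at 33.4, 61.7 and 13 CPM, in sham Xmo at 24.6, 42.9, 8.35 and 4.60, in OVX saline at 6.44, 3.50, 36.8 and 25, and in OVX Xmo at 4.86, 61.5, 14.6 and 18.1. Its range was 17.6-fold, and OVX Xmo 2 and sham saline 2 were nearly equal at the top after scaling, against 64.9 and 44.8 CPM unscaled. Lef1, the least abundant of the 3 factors, stood in the sham saline libraries at 15, 17.7 and 7.47 CPM, in sham Xmo at 8.43, 10.9, 4.50 and 3.24, in OVX saline at 2.55, 1.97, 9.01 and 8.58, and in OVX Xmo at 4.91, 17.3, 6.30 and 5.48. OVX saline 3 and 4 lay above sham saline 3, so even here the groups overlapped. Zic1 stood in the sham saline libraries at 50.1, 82.0 and 12.4 CPM, in sham Xmo at 46.5, 103, 17.7 and 22.2, in OVX saline at 9.27, 12.5, 42.6 and 38.6, and in OVX Xmo at 11.3, 96.9, 27.8 and 28.6. It was the only member with its highest level in sham Xmo 2.

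The neurotransmission and axon genes had ranges of 4.51- to 9.26-fold. Slc17a6 stood in the sham saline libraries at 70.4, 139 and 48.2 CPM, in sham Xmo at 77.2, 110, 21.5 and 34.4, in OVX saline at 15.1, 18, 79.7 and 49.2, and in OVX Xmo at 39.0, 119, 47.8 and 61.1, a 9.26-fold range. Ntng1 stood in the sham saline libraries at 88.7, 116 and 50.4 CPM, in sham Xmo at 66.1, 67.7, 38.8 and 34.0, in OVX saline at 37.9, 32.7, 89.4 and 71.8, and in OVX Xmo at 39.1, 147, 57.6 and 65.7, a 4.51-fold range. Calb2 stood in the sham saline libraries at 35.9, 29.4 and 16.1 CPM, in sham Xmo at 21.3, 57.0, 24.2 and 17.9, in OVX saline at 15.1, 13.9, 37.5 and 27.6, and in OVX Xmo at 21.3, 65.1, 27.4 and 24.2, a 4.70-fold range. In all 3 genes OVX saline 3 and 4 lay above OVX saline 1 and 2.

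**Figure D1:**
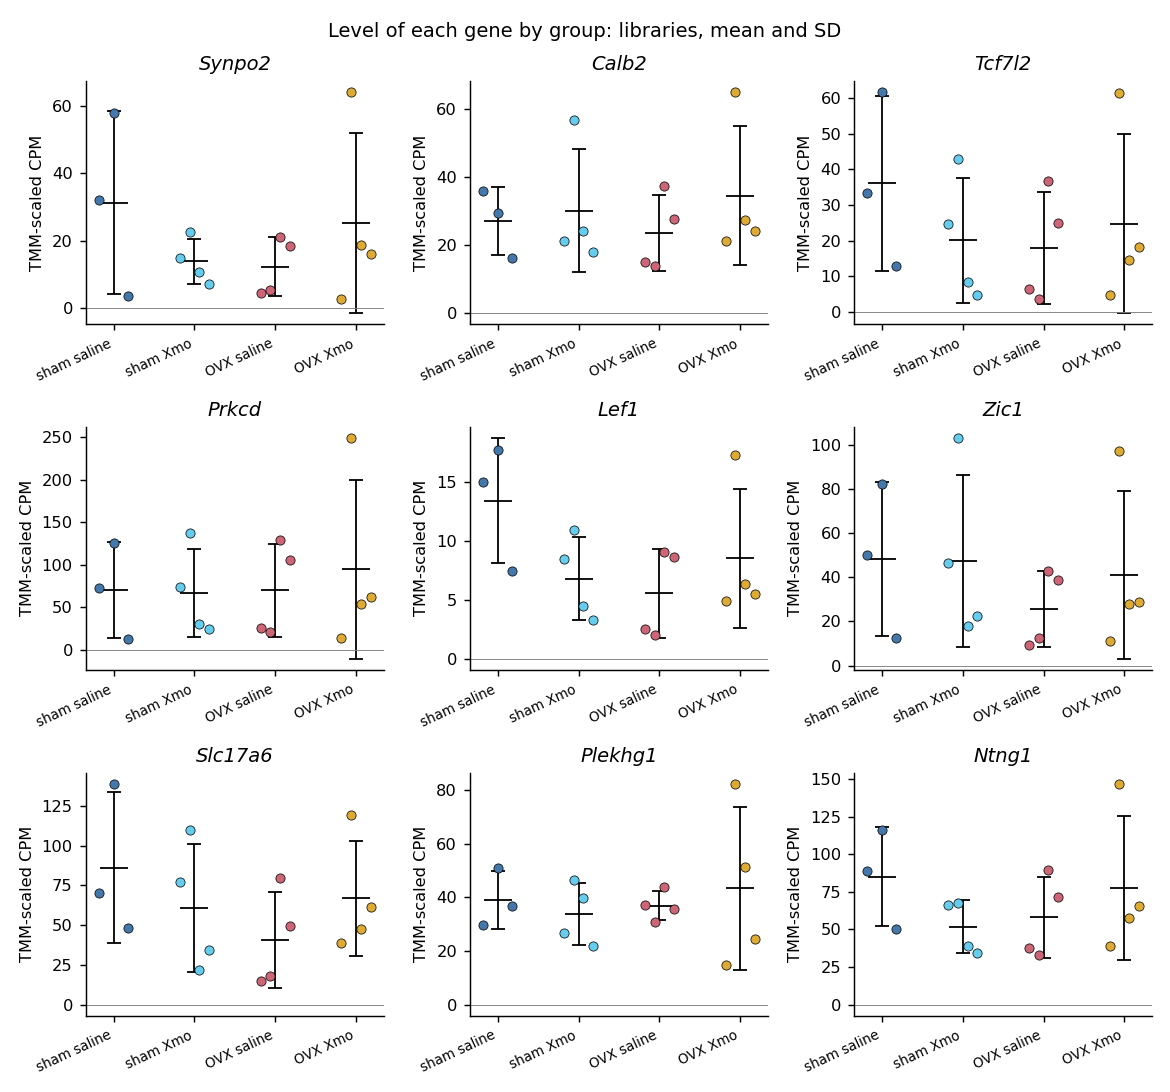
Level of each of the 9 genes (TMM-scaled CPM, y axis) in the 4 groups (x axis), with a point per library, the group mean as a horizontal line and the SD as whiskers. Libraries of a group lie far apart in most panels, least so for Plekhg1 in OVX saline, and in OVX Xmo a single library (OVX Xmo 2) stands above the other 3 in all 9 panels.

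Set against each gene's own median over the 15 libraries, the 9 genes marked out the same libraries. OVX Xmo 2 had the highest level of 5 genes and a median multiple of 2.69. Sham saline 2 was highest in 3 genes (multiple 2.37) and sham Xmo 2 in 1 gene (multiple 2.21). The first place of sham saline 2 depends on its TMM factor of 0.726. In unscaled CPM, OVX Xmo 2 was above it for these genes: Tcf7l2 (64.9 against 44.8), Lef1 (18.3 against 12.9) and Slc17a6 (126 against 101). All 9 genes were above their medians in these 3 libraries and in OVX saline 3, whose multiple was 1.49.

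At the other end, the multiples were 0.356 in OVX saline 1, 0.366 in OVX saline 2 and 0.397 in OVX Xmo 1. OVX saline 2 was the lowest library for 4 of the 9 genes. Sham Xmo 4 (0.518), sham Xmo 3 (0.603) and sham saline 3 (0.719) also lay below 1. Each of the 4 groups thus held at least 1 library from each end.

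**Figure D2:**
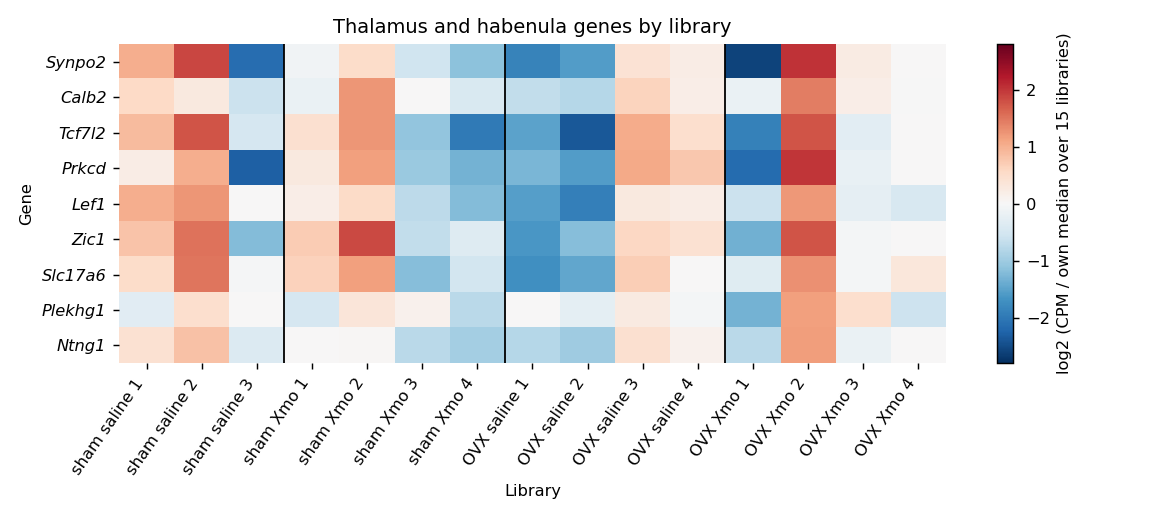
Level of each gene (rows) in each of the 15 libraries (columns, groups divided by black lines), as log2 of CPM over the gene's own median. Columns are coloured alike from top to bottom: OVX Xmo 2, sham saline 2 and sham Xmo 2 are high and OVX saline 1, OVX saline 2 and OVX Xmo 1 are low, with Plekhg1 the least regular row.

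The spread between libraries of a group was large for genes of this abundance. The within-group SD of log2 CPM was 1.51 in Synpo2, 1.48 in Prkcd, 1.45 in Tcf7l2, 1.22 in Zic1 and 0.96 in Slc17a6. It was 0.89 in Lef1, 0.70 in Calb2, 0.67 in Ntng1 and 0.67 in Plekhg1, against a median of 0.26 over all genes tested. Among genes within 0.5 log2 of the same mean level, the 9 stood between percentile 97.4 (Lef1) and percentile 99.9 (Prkcd) of this SD. The 9 genes were chosen with earlier results of these data known, so these places describe them and support nothing further. Differences within groups made up 99.5% of the squared deviation of Prkcd and 97.5% of that of Plekhg1, down to 76.3% for Slc17a6 and 68.8% for Lef1. The median over all genes tested was 70.8%.

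**Figure D3:**
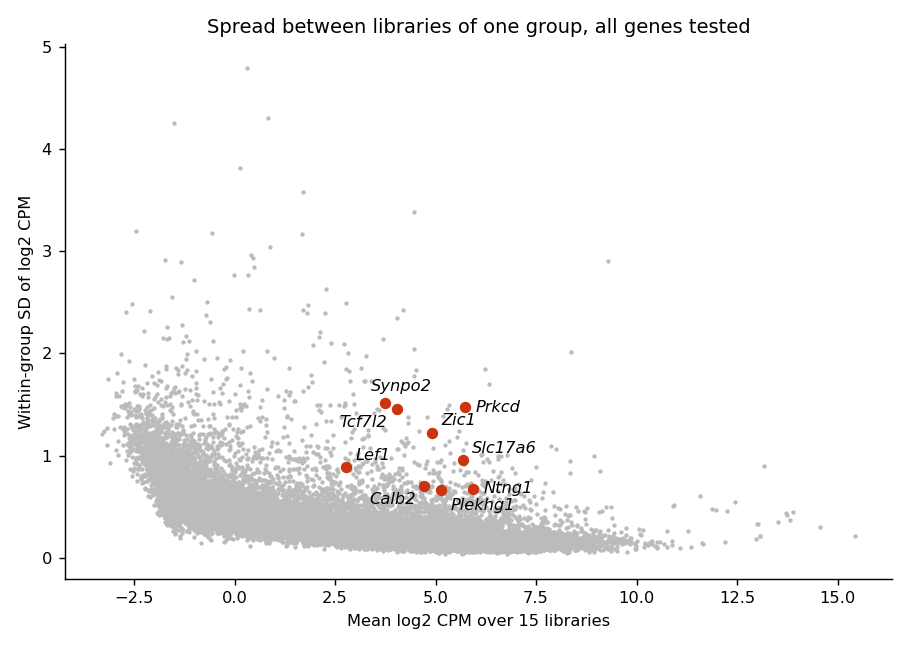
Within-group SD of log2 CPM (y axis) against mean log2 CPM over 15 libraries (x axis) for all genes tested, one grey point per gene, with the 9 genes in red. The red points lie between 0.67 and 1.51, above nearly all genes of like level and above the all-gene median of 0.26. The 9 genes were chosen with earlier results of these data known.

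The genes varied together within groups. After each group's mean was removed, all 36 pairs of the 9 genes correlated positively over the 15 libraries, with Pearson r from 0.441 to 0.981 and a median of 0.893. By permutation of values within groups with Benjamini-Hochberg adjustment over the 36 pairs, 35 pairs passed at 0.05 for Pearson r and 34 for Spearman rho. Without the 2 libraries farthest from the median of the first gene of each pair, r ran from 0.324 to 0.976 with a median of 0.889. The genes were chosen with such results known, so these values describe them and support nothing further.

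Prkcd and Zic1 were the closest pair, at r = 0.981 and rho = 0.968 (permutation p = 0.00011 for each, adjusted 0.00033 and 0.00036, n = 15), and r was 0.975 without OVX Xmo 1 and sham saline 3. Prkcd also followed Ntng1 at r = 0.974 and Synpo2 at r = 0.966. Tcf7l2 and Lef1, the TCF/LEF factors, correlated at r = 0.958, and all 3 of these pairs had an adjusted permutation p of 0.00028. Plekhg1 stood apart: its r with the mean of the other 8 genes was 0.636, while the other 8 genes reached 0.879 (Slc17a6) to 0.983 (Prkcd) in the same measure. The single pair that missed the test by r was Slc17a6 and Plekhg1, at r = 0.441 (permutation p = 0.0708, adjusted 0.0708) and rho = 0.339 (permutation p = 0.207, adjusted 0.207). Zic1 with Plekhg1 missed it by rho only (rho = 0.50, permutation p = 0.109, adjusted 0.112). The 28 pairs without Plekhg1 all passed by r, and their lowest r was 0.767.

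A further 20 thalamus genes, mostly regional transcription factors, signalling genes and synaptic genes, followed the same libraries. Their summed unscaled CPM was 293 to 628 in sham saline, 316 to 744 in sham Xmo, 282 to 775 in OVX saline and 319 to 1340 in OVX Xmo. For the 9 genes themselves the sums were 168 to 494, 182 to 626, 148 to 518 and 161 to 953. OVX Xmo 2 was the highest library for both sums. Adarb1, Rora and Amotl1 had the highest medians of the 20 genes, at 156, 104 and 48.4 CPM, so the sum of the 20 rests largely on them. Of the 20 genes, 12 had their highest level in OVX Xmo 2, and 19 had a positive r with the mean of the 9 genes, 13 of them over 0.8 (description over 15 libraries, group means removed). The 20 genes, like the 9, were chosen with earlier results of these data known. Their likeness to the 9 therefore describes the list and is no separate support.

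Gbx2, a transcription factor of thalamic development, was at 0 counts in 4 libraries and reached 4.30 CPM in OVX Xmo 2, against 0.59 CPM at its median. Lhx9, another factor of the region, ran from 6.36 to 28.1 CPM with its highest level in sham saline 2. Rora, a nuclear receptor gene, stood at 280 CPM in OVX Xmo 2 and 41.0 CPM in sham Xmo 4 (r = 0.97). Not all followed: Cbln1 had r = -0.24 and its highest level in sham saline 3, Rorb had r = 0.05 and its highest level in sham saline 2, and Cbln2 had r = 0.30. Zic4, which overlaps Zic1, had an r of 0.67.

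Of the genes of the thalamic reticular nucleus, the inhibitory shell of the thalamus, 3 of 4 were scarce. Ecel1 did not exceed 3.26 CPM, and Isl1 was at 0 counts in 11 of 15 libraries. Six3 reached 12.4 CPM in sham saline 2 against a median of 0.78, and the striatum also expresses it. Spp1 ran from 3.74 to 9.61 CPM. All 4 had a positive r with the mean of the 9 genes, at 0.85 for Ecel1, 0.81 for Six3, 0.53 for Isl1 and 0.13 for Spp1.

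Habenula genes did not follow the 9 genes in most libraries. The summed unscaled CPM of 14 habenula genes was 219 in sham Xmo 2 and between 35.8 and 85.2 in the other 14 libraries. OVX Xmo 2, the highest library for 5 of the 9 genes, had a habenula sum of 67.6 and ranked 14 of 15, and sham saline 2 had the lowest sum. Sham saline 2 also had the lowest unscaled sums of dentate, pyramidal, hippocampal excitatory, neocortex and interneuron genes. Its low habenula sum is thus not particular to habenula genes. Nwd2 and Lrrc55 had the highest medians of the 14 genes, at 41.7 and 15.6 CPM, and both were lowest in sham saline 2. Outside sham Xmo 2 the ranks by this sum thus rest largely on these genes and say little about the scarcer markers. Of the 14 genes, 13 had their highest level in sham Xmo 2, and 9 were more than 2-fold above every other library there. Over the 12 tested, 8 had a positive r with the mean of the 9 genes and none exceeded 0.64 (Chrna3).

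Gpr151, a receptor gene of habenular neurons, was at 18.3 CPM in sham Xmo 2 and at most 1.39 CPM elsewhere. Tac2, which encodes neurokinin B, was at 22.5 CPM there and at most 4.14 elsewhere. Pou4f1, a transcription factor of the medial habenula, was at 4.70 CPM and at most 0.78 elsewhere. The nicotinic receptor genes Chrnb4 and Chrna3 were at 5.06 and 10.4 CPM, against at most 1.11 and 2.47 elsewhere.

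Levels of the 9 genes themselves in sham Xmo 2 were not set apart in this way. Zic1 was 1.06-fold above its next highest library there, and the other 8 were below their highest library elsewhere. Against OVX Xmo 2, sham Xmo 2 had about the same Zic1 (OVX Xmo 2 at 0.941 of its level) while Synpo2 was 2.85-fold higher in OVX Xmo 2. Habenula markers thus stood above their common level in a single library, while thalamus genes moved with the 9 across the libraries. Of 8 striatum genes, 7 were also highest in sham Xmo 2, with a summed unscaled CPM of 182 there and 72.7 to 120 elsewhere.

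**Figure D4:**
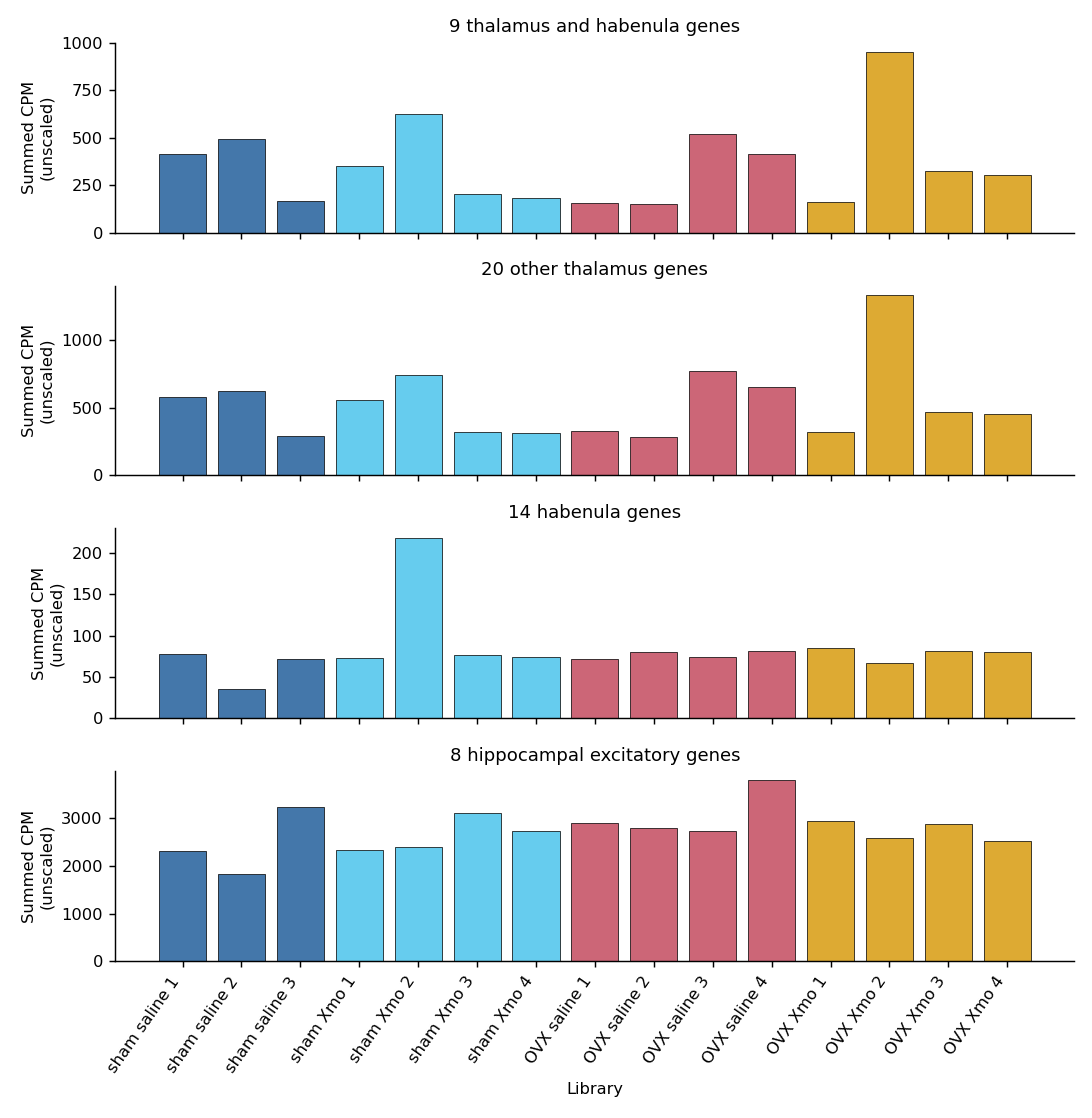
Summed unscaled CPM (y axes, from 0) in each of the 15 libraries (x axis, coloured by group) of the 9 genes, 20 other thalamus genes, 14 habenula genes and 8 genes of hippocampal excitatory neurons. The upper 2 panels share their high and low libraries, while the habenula panel has a single high bar of 219 in sham Xmo 2.

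Markers of the labelled tissue were high in every library. The summed unscaled CPM of 8 genes of hippocampal excitatory neurons was 1830 to 3240 in sham saline, 2340 to 3100 in sham Xmo, 2720 to 3790 in OVX saline and 2520 to 2950 in OVX Xmo. Zbtb20 ran from 259 to 553 CPM and Neurod6 from 211 to 385 CPM. All 8 had a negative r with the mean of the 9 genes, from -0.74 (Neurod2) to -0.02 (Hpca). Both were measured as shares of the same libraries. The dentate genes Prox1 and C1ql2 ran from 133 to 203 and from 30.1 to 53.4 CPM, and the CA1 genes Wfs1 and Fibcd1 from 34.4 to 143 and from 36.3 to 84.7 CPM. These lists had r of both signs. In the dentate list 5 of 10 genes had a positive r (range -0.614 to 0.462). In the list of CA1, CA2 and CA3 pyramidal cells 6 of 12 did (range -0.646 to 0.911).

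Markers of other neighbours differed in how they moved with the 9 genes. Neocortex genes had a negative r in 11 of 12 genes, with Cux2 at 18.4 to 43.8 CPM and Rspo1 at 0.634 to 2.38 CPM. Myelin genes had a positive r in 9 of 10, with Mbp at 501 to 936 CPM, and all 8 genes of meninges and fibroblasts had a positive r, with Col1a1 at 3.48 to 13.2 and Col1a2 at 2.40 to 14.6 CPM. Choroid plexus genes shared their high libraries with the 9 genes only in part: Ttr ran from 49.8 to 8050 CPM and Folr1 from 0.522 to 39.2 CPM, and 7 of 14 had a positive r. All 14 genes were highest in sham Xmo 4, which ranked 11 of 15 by the summed unscaled CPM of the 9 genes. Sham Xmo 2 ranked 4 by the choroid plexus sum and 2 by that of the 9 genes.

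Interneuron genes had a positive r in 3 of 8 (Gad1 108 to 212, Gad2 105 to 170 CPM), and genes of endothelium and mural cells in 8 of 10 (Cldn5 8.54 to 13.3, Flt1 31.7 to 57.2 CPM). Striatal genes differed in level, with Adora2a at 0.643 to 5.16 CPM, Drd2 at 1.55 to 6.84 CPM and Ppp1r1b, the most abundant, at 31 to 66.1 CPM. Drd2 had an r of 0.858. Hypothalamic Hcrt and Pmch had at most 6 and 13 counts in any library, and the 2 hypothalamic genes tested had r of -0.28 and 0.23 (Pomc and Agrp). Midbrain genes were low, with at most 37 counts of Gata3 and 85 of Tal1 in any library, but all 5 tested had a positive r, at 0.71 for Gata3, 0.68 for Tal1 and 0.61 for Sox14. The summed unscaled CPM of the 8 midbrain genes was 2.33 to 5.73, highest in OVX Xmo 2 and next in sham Xmo 2 (5.42). The part of any of these tissues in the levels of the 9 genes was not tested.

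Among 15913 genes with a mean of at least 1 CPM that are not among the 9, 234 had an r over 0.8 with the mean of the 9 genes, 105 an r over 0.9, and 59 an r below -0.8. The most alike were Mrvi1 (r = 0.991), Prkch (0.989), Amotl1 (0.988), Patj (0.987) and Plekhd1 (0.984). Prkch encodes protein kinase C eta, a relative of Prkcd, and ran from 1.85 to 13.2 CPM. Next came Rgs16 (0.979), Ptpn3 (0.979), Ramp3 (0.977), Syt9 (0.973), Lrch1 (0.971), Lrrc3 (0.971), Atp2a1 (0.969), Ccdc136 (0.968), Rab37 (0.968) and Vash2 (0.967). Amotl1, Patj, Rgs16 and Ramp3 belong to the 20 thalamus genes above. OVX Xmo 2 was the highest library for all of these 15 genes except Syt9, which was highest in sham Xmo 2, and without OVX Xmo 1 and OVX Xmo 2 their r ran from 0.956 (Lrrc3) to 0.994 (Mrvi1).

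The lowest r belonged to Tmem181a (-0.928), Ubp1 (-0.906), Lama3 (-0.902), Gm10419 (-0.887) and Vipr1 (-0.886). Their levels varied little, by 1.31-fold (Ubp1) to 2.26-fold (Lama3) over the 15 libraries. These correlations are descriptions over 15 libraries that share the scaling of each library.

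Ovariectomy was addressed by OVX saline against sham saline. None of the 9 genes passed the quasi-likelihood test of edgeR, a model of counts fitted to all genes, at a Benjamini-Hochberg adjusted p of 0.05, and 6.24% of all genes tested did. No gene of the 9 had groups without overlap, against 24.5% of all genes tested. All 9 fitted log2 fold changes were below 0, with a median of -0.91 against 0.01 over all genes tested, of which 9880 were lower. These fold changes follow TMM scaling, with factors of 0.726 to 0.969 in sham saline and 1.02 to 1.09 in OVX saline. In mean TPM, Prkcd (80.4 against 44.2), Calb2 (32.6 against 25.1), Plekhg1 (15.6 against 9.54) and Ntng1 (27.6 against 24.3) were higher in OVX saline. The other genes were lower. The summed unscaled CPM averaged 309 ± 186 in OVX saline and 359 ± 170 in sham saline (SD). Lef1 averaged 5.53 ± 3.78 CPM in OVX saline (SD, n = 4) and 13.4 ± 5.31 in sham saline (n = 3). The fitted log2 fold change was -1.28 (SE 0.58, edgeR adjusted p = 0.189). Lef1 was the only member with an unadjusted p under 0.05, where 24.7% of all genes tested were.

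Synpo2 had the largest estimate, -1.35 (SE 0.88, edgeR adjusted p = 0.369), with a 95% interval from -3.23 to 0.54. Prkcd was near 0 at -0.01, yet its interval ran from -1.96 to 1.95, which spans several-fold differences either way. The members' median was -0.30 and Synpo2 -0.56 without sham saline 2, the library with the largest mitochondrial share (34.1%), and the median was -1.36 without sham saline 3. Mitochondrial genes took 11.9% to 16.5% of the counts in OVX saline and 19.0% to 34.1% in sham saline, and their part in these values was not tested. Of the 36 other thalamus, reticular and habenula genes tested, none passed here or in the comparisons below, and 4 thalamus, 3 reticular and 0 habenula genes had an unadjusted edgeR p under 0.05 here. The thalamus list had 18 of 20 genes lower (median log2 fold change -0.42) and the habenula list 8 of 12 (median -0.07).

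Treatment of the ovariectomized mice was addressed by OVX Xmo against OVX saline, which shares the OVX saline libraries with the first comparison. By edgeR 0% of all genes tested passed, the 9 included. At an unadjusted p under 0.05 edgeR gave 834 genes (4.18%) and none of the 9. DESeq2, at an adjusted p under 0.05, called 3 genes, none of the 9. Fitted values of all 9 were above 0, with a median log2 fold change of 0.56 against 0.00 over all genes, of which 10155 were higher. The groups of every member overlapped, against 3.11% of all genes without overlap.

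Slc17a6 was at 66.8 ± 36.1 CPM in OVX Xmo and 40.5 ± 30.4 in OVX saline (SD, n = 4 each), a log2 fold change of 0.72 (SE 0.58, edgeR adjusted p = 0.998). Synpo2 had 1.05 (SE 0.83, edgeR adjusted p = 0.998) and a 95% interval from -0.72 to 2.81. Without OVX Xmo 2 the median of the 9 turned to -0.10, with Prkcd at -0.70, Tcf7l2 at -0.52 and Slc17a6 at 0.28. Without OVX saline 3 it was 0.97. The direction of the median in this comparison thus rested on OVX Xmo 2.

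In sham-operated mice, sham Xmo against sham saline gave 1.51% of all genes past the edgeR test and none of the 9. None of the 9 was without overlap (14.2% of all genes) or under an unadjusted p of 0.05 (18.4%). The median log2 fold change of the 9 was -0.50 against 0.03 over all genes, with Calb2 at 0.15 (SE 0.48) and the other 8 below 0. In mean TPM, without TMM scaling, Calb2, Prkcd, Zic1, Slc17a6 and Plekhg1 were higher in sham Xmo, and the other genes were lower. Lef1 had the smallest adjusted p of the 9, at -0.98 (SE 0.58, edgeR adjusted p = 0.387). The median was 0.01 without sham saline 2 and -0.90 without sham Xmo 2. The mitochondrial share was 14.3% to 19.2% in sham Xmo, below that of sham saline except for an overlap at 19.0%, and its part here was not tested either.

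Ovariectomy under treatment, OVX Xmo against sham Xmo, gave 0.01% of all genes past the edgeR test and none of the 9. In the same comparison no member was without overlap (5.88% of all genes) or under an unadjusted p of 0.05 (10.2%). The median of the 9 was 0.33 against -0.02 over all genes, with Zic1 at -0.20 (SE 0.72) and the other 8 above 0. Ntng1 had the smallest adjusted p, at 0.58 (SE 0.41, edgeR adjusted p = 0.68). Without OVX Xmo 2 the median turned to -0.31 and Ntng1 stood at 0.06, and without sham Xmo 2 the median was 0.71.

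Habenula genes, taken as a list, had a median log2 fold change of -0.95 in OVX Xmo against sham Xmo, with 11 of 12 lower and 0 past the edgeR test. In sham Xmo against sham saline 11 of 12 were higher, with a median of 0.66 and 0 past the test. Both comparisons contain sham Xmo 2, the library with the habenula sum of 219.

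The difference between the treatment effects, OVX animals minus sham animals, had 0.416% of all genes past the edgeR test and none of the 9. At an unadjusted p under 0.05 there were 17.4% of all genes and none of the 9. All 9 estimates were above 0, with a median of 1.14 against -0.02 over all genes. Synpo2 had the largest, 2.22 (SE 1.21, edgeR adjusted p = 0.362), and Lef1 the smallest adjusted p, with 1.61 (SE 0.80, edgeR adjusted p = 0.313). The interval of Synpo2 ran from -0.35 to 4.8. Without OVX Xmo 2 the median was 0.33, Synpo2 stood at 1.18 and Lef1 at 1.00. This contrast reuses all 15 libraries of the comparisons above.

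Over the 4 comparisons of 2 groups, standard errors of the 9 genes ran from 0.40 to 0.92 on the log2 scale. No member was past the test in any of the 45 tests, which does not show that the groups have equal levels. The 9 genes moved together over the same libraries, so a direction they share in a comparison is not 9 separate observations.

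**Figure D5:**
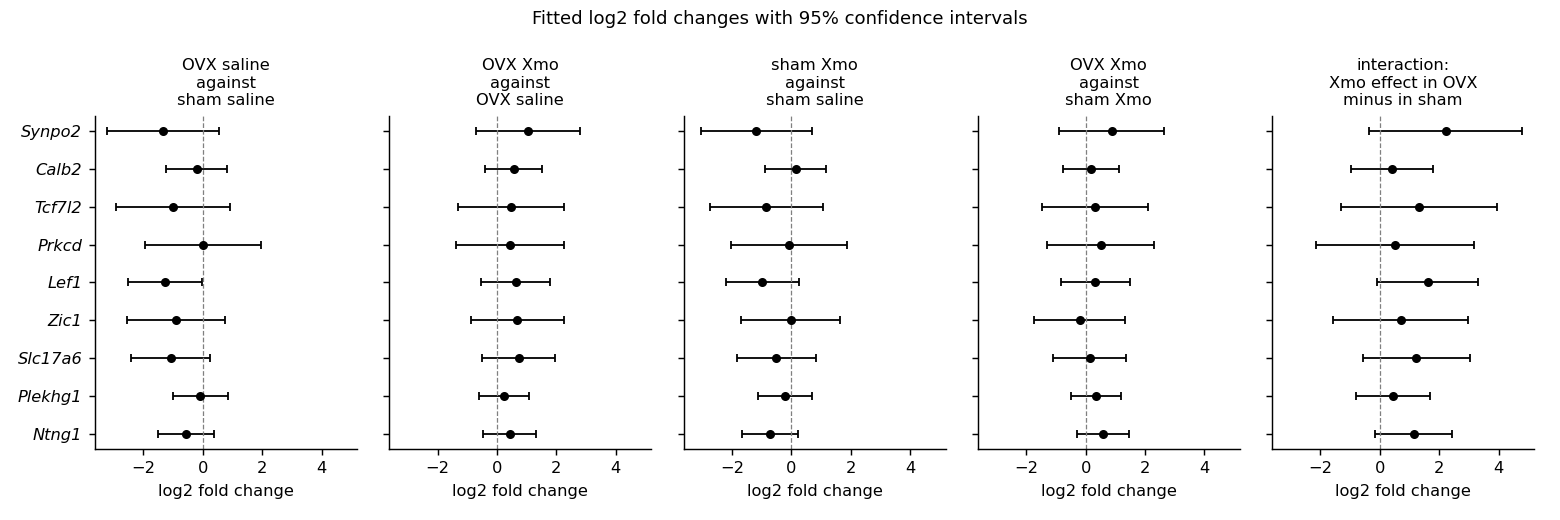
Fitted log2 fold changes of the 9 genes (y axis) in 5 comparisons (panels, x axis on the log2 scale), with points for the estimate and whiskers for the 95% interval; the dashed line marks 0. Every interval spans 0 except that of Lef1 in OVX saline against sham saline, whose upper end is -0.04 and whose adjusted p was 0.189.

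Genes of other lists passed the edgeR test in places where the 9 did not. In OVX saline against sham saline, Il16 of the dentate list was higher (log2 fold change 0.48, edgeR adjusted p = 0.039), and the vascular genes Rgs5 (-0.58, adjusted p = 0.0244) and Flt1 (-0.54, adjusted p = 0.0265) were lower. In sham Xmo against sham saline, the myelin gene Mog was higher (0.70, edgeR adjusted p = 0.0326) and Flt1 lower (-0.55, adjusted p = 0.0418). Maml2 of the dentate list passed for the difference between treatment effects (-0.81, edgeR adjusted p = 0.041). The standard errors of these genes lay between 0.12 and 0.16, well under those of the 9.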

How the data were processed

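RNA was sequenced from hippocampi of ICR mice in 15 mRNA libraries. Hippocampi were flash frozen and extracted with Trizol, per the labels' protocols. Build GRCm38.p6 and the tools StringTie 1.3.3b, Bowtie2 2.3.2, Trimmomatic 0.36 and FastQC 0.11.2 are named in the submitters' processing notes, without roles. The authors deposited whole-number counts per gene, used for all tests, and TPM, used for levels per length, per the file headers. A further 12 columns of per-sample values match no sample and were not used.

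Genes were filtered with filterByExpr, scaled by TMM and fitted on all 4 groups with the quasi-likelihood model of edgeR 4.0.16 (R 4.3.3, 11 residual degrees of freedom), with Benjamini-Hochberg adjustment over 19969 genes and a threshold of 0.05. Log2 CPM used a prior count of 2. Pairs of genes were tested with 1e+05 permutations within groups. The scripts were tested on simulated data. DESeq2 1.42.0, RLE factors, no filter, only the compared groups, a replicate block and leaving out each library were alternatives.

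Named are the 9 genes, the 15 most and 5 least alike genes with a mean of at least 1 CPM, and from each list of marker genes the first 2 and up to 4 past the test, except a gene that is not reported here. Other list genes (Rora, Adarb1, Cbln1, Cbln2, Rorb, Zic4, Isl1, Spp1, Sox14, Pomc, Agrp, Chrnb4, Chrna3, Pou4f1, Nwd2, Lrrc55, Ppp1r1b, Neurod2, Hpca and Slc17a7) were picked as examples after their values were seen. The 9 genes and the lists were chosen with earlier results of these data known. Totals of 20848661 to 39140593 counts per library set counting error only, not the spread between libraries. The miRNA libraries are not analysed here.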

Additional observations from a re-analysis of the deposited data

Results flagged for a closer look

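In groups of 4 libraries, a library was picked out where its gap to the nearest other library was a larger share of the group's whole range than Dixon's 95% critical value. Of 42 such groups of values examined, 8 held such a library, 3 of them among the 27 groups of the 9 genes. For independent, normally distributed values chance alone picks out about 1 in 20. The values here were CPM on the linear scale, of genes and lists that move together, so the 8 cannot be weighed against that rate. Calb2 stood at 65.1 CPM in OVX Xmo 2, with the other 3 OVX Xmo libraries at 21.3 to 27.4 CPM. It stood at 57.0 CPM in sham Xmo 2, with the other sham Xmo libraries at 17.9 to 24.2 CPM. Lef1 stood at 17.3 CPM in OVX Xmo 2, with the others at 4.91 to 6.30 CPM.

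The remaining 5 were sums of unscaled CPM over marker lists. The 20 other thalamus genes summed to 1340 in OVX Xmo 2 and to 319 to 473 in the other OVX Xmo libraries. The 14 habenula genes summed to 219 in sham Xmo 2 and to 73.1 to 76.6 in the other sham Xmo libraries. Choroid plexus genes summed to 1950 in OVX Xmo 3 (others 85.4 to 279) and to 526 in OVX saline 4 (others 91.3 to 147). Genes of hippocampal excitatory neurons summed to 3790 in OVX saline 4 (others 2720 to 2890).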

How the results depend on the processing

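No gene of the 9 passed the test in any comparison under any alternative run, DESeq2 included. Of 621 log2 fold changes of the 9 genes under alternatives, 573 kept their direction and 48 turned, 40 of these on leaving out a library; RLE factors turned none. The ranges of the turned values without a library are as follows. In OVX saline against sham saline they ran Calb2 -0.541 to 0.0525, Prkcd -0.5 to 0.711 and Plekhg1 -0.248 to 0.144. In OVX Xmo against OVX saline they ran Synpo2 -0.00391 to 1.44, Tcf7l2 -0.522 to 1.1, Prkcd -0.699 to 0.906, Zic1 -0.195 to 1.03, Plekhg1 -0.303 to 0.514 and Ntng1 -0.103 to 0.701. In sham Xmo against sham saline they ran Calb2 -0.383 to 0.41, Prkcd -0.727 to 0.639, Zic1 -0.76 to 0.588, Slc17a6 -0.974 to 0.0273 and Plekhg1 -0.434 to 0.00927. In OVX Xmo against sham Xmo they ran Synpo2 -0.181 to 1.25, Calb2 -0.32 to 0.71, Tcf7l2 -0.699 to 0.994, Prkcd -0.634 to 1.14, Lef1 -0.298 to 0.664, Zic1 -1.08 to 0.516, Slc17a6 -0.308 to 0.592 and Plekhg1 -0.172 to 0.645. For the difference between treatment effects they ran Calb2 -0.0929 to 0.938, Prkcd -0.609 to 1.17, Zic1 -0.159 to 1.44 and Plekhg1 -0.0712 to 0.746. Without the filter, Prkcd in OVX saline against sham saline was 0.0115.

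No pairing by replicate number was seen in the levels. Over 21 same-numbered pairs r ran from -0.215 to 0.186 with 2 over 0.1, and 2 of 15 libraries correlated best with their own number. The labels do not say what the numbers mark, and low r cannot show that they mark nothing shared. With the replicate number as a block, log2 fold changes turned for Prkcd (0.538) and Plekhg1 (0.145) in OVX saline against sham saline, for Tcf7l2 (-0.107), Prkcd (-0.249) and Plekhg1 (-0.0259) in OVX Xmo against OVX saline, and for Prkcd in sham Xmo against sham saline (0.0121) and the difference between treatment effects (-0.261). The cause was not tested.

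Counts over all genes moved more: for OVX saline against sham saline they were 1246, then 568 without the filter, 178 with the block, 2322 with DESeq2 and 80 (without sham saline 3) to 978 on leaving out a library. For sham Xmo against sham saline they were 302, then 108, 37, 1110 and 14 (without sham saline 3) to 673 (without sham Xmo 1), and 6 in a fit of the compared groups alone; for the difference between effects 83, then 20, 11, 852 and 6 (without sham Xmo 3) to 302 (without sham Xmo 1). For OVX Xmo against OVX saline DESeq2 gave 3 and the compared groups alone 1, against 0, and 0 to 1 on leaving out a library. For OVX Xmo against sham Xmo DESeq2 gave 76, the compared groups alone 0 and the block 0, against 2, and 0 to 3 on leaving out a library. The median within-group SD of the 9 genes stayed between 0.886 and 1.00 on leaving out a library, and was 0.959 with a prior count of 0.5 and 0.96 with RLE factors, against 0.957.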
